A study of Mus musculus with 14 samples.

Results

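The Ms4a genes encode small proteins that cross the membrane repeatedly, and they were followed here in mouse acute myeloid leukaemia cells. The set was chosen by gene symbol as 10 members: Ms4a1, Ms4a2, Ms4a3, Ms4a4a, Ms4a4b, Ms4a4c, Ms4a6b, Ms4a6c, Ms4a6d and Ms4a7. Of these 10, 7 were among the 13406 genes of the doxycycline experiment, and the same 7 were among the 14563 genes of the Id2 experiment. Ms4a1, Ms4a2 and Ms4a4a were in neither table, and no other symbol starting with Ms4a was in either. Both tables keep only genes above 1 CPM (reads of a gene relative to the reads of its library) in at least 2 libraries, so a gene that is not listed may have been below that level. The list was drawn up with results of these data known, so the tests on its members are not independent support for a pattern of the family.

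Ms4a proteins sit in the plasma or endosomal membrane of blood cells, where several of them associate with receptors and change how these signal. Ms4a1 is CD20 of B cells, and Ms4a2 is the beta chain of the high-affinity IgE receptor of mast cells and basophils. Ms4a3 (HTm4) marks granulocyte and monocyte progenitors and binds the phosphatase Cdkn3, which acts on the cell-cycle kinase Cdk2. Ms4a4b is best known from T cells, where it associates with the co-stimulatory receptor Tnfrsf18 (GITR). Ms4a7 and the Ms4a4 and Ms4a6 genes are known from monocytes and macrophages, and human members of these groups have been linked to the microglial receptor TREM2.

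The leukaemias carried MLL-AF9 under Tet-Off control, with a dsRED reporter, together with the oncogenic allele NRASG12D and the Tet-Off activator, delivered by retroviral vectors into foetal liver cells of C57/BL6 background and grown in irradiated hosts. Cells came from the spleens of sick mice, and ages were not given in the sources used here. In the first experiment, 4 cultures received doxycycline for 4 days, which shuts off the MLL-AF9 transgene, and 4 were left untreated. Their labels form the pairs TRIMA2-M1B1, TRIMA2-M3B1, TRIMA2-M4B1 and TRIMA1-M4B1, called pairs 1 to 4 below. The doxycycline titles of pairs 1, 2 and 4 end in -R, and that of pair 3 and the untreated titles do not. The labels do not say what this ending means, so anything it marks cannot be told apart from doxycycline in those pairs. In the second, cells received a retroviral vector carrying Id2 and GFP (Id2-GFP, 3 libraries) or the control-GFP vector (3 libraries), and GFP-positive cells were sorted after 2 days, with replicate numbers 1 to 3 in both groups. All cells of both experiments carry NRASG12D and MLL-AF9, and no group here lacks the vectors. The labels do not say whether different numbers came from different mice, so p-values measure the spread between these cultures, which may be technical.

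The tabled reads summed to between 17922644 and 25959766 per library in the doxycycline experiment and to between 14051150 and 14948487 in the Id2 experiment. Id2, the gene in the vector, lay between 952 and 1631 CPM in the Id2-GFP libraries and between 25.8 and 51.5 CPM in the control-GFP libraries, so each library fits its label. Reads from the vector and from the cell's own Id2 gene cannot be told apart. MLL-AF9 itself was not analysed here. The authors' scaling of libraries differed between the doxycycline groups, with factors of 1.07 to 1.1 untreated and 0.891 to 0.951 with doxycycline. With library totals in place of that scaling, the median change of all genes moved from -0.03 to -0.27 on the log2 scale, and the share of called genes that were higher moved from 48.1% to 28.1%.

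In the mouse genome (GRCm38, GENCODE M21), 19 Ms4a genes lie in a block of 678.6 kb on chromosome 19, from 10962293 to 11640851, with 13 on the minus and 6 on the plus strand. The 7 measured genes all lie in the part that starts with Ms4a7 (ENSMUSG00000024672, 11321039 to 11336146, minus) and ends with Ms4a3 (ENSMUSG00000024681, 11629496 to 11640851, minus). Between them, on the plus strand, lie Ms4a4c (ENSMUSG00000024675, 11404770 to 11427246), Ms4a4b (ENSMUSG00000056290, 11443553 to 11467055), Ms4a6c (ENSMUSG00000079419, 11469366 to 11482192) and Ms4a6b (ENSMUSG00000024677, 11516512 to 11531256). Ms4a6d (ENSMUSG00000024679, 11586604 to 11604849) lies between Ms4a6b and Ms4a3, on the minus strand. Of the exon bases of Ms4a6c, 53.1% are shared with BE692007, a non-coding gene on the opposite strand that is not in the tables. Whether the counting used strand was not given in the sources used here, so the value of Ms4a6c is uncertain to that extent.

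Id2 binds E proteins, which otherwise bind the E-box motif, so the sequence upstream of the measured genes is shown with its E-boxes (CANNTG, which reads the same on both strands) in capitals. The RefSeq promoter table (GRCm38.p6; 250 bases before to 50 after the start site) held windows for 8 of the 10 members, and none for Ms4a1 and Ms4a6d. Start sites here are those of RefSeq. For Ms4a4c (11407661) and Ms4a6b (11518559) they lie well inside the gene spans given above, whose outer ends serve as start sites in the plot along the chromosome. Each line below gives the 250 bases before the start site, read in the direction of the gene, for the member that fell, the member with the largest rise and both pairs of close copies.
Ms4a3, chr19:11640852-11641101, minus strand: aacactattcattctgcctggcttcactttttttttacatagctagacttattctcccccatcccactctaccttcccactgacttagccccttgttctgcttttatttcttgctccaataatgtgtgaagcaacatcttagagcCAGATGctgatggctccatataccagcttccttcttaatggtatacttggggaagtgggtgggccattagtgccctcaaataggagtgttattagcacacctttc
Ms4a7, chr19:11336147-11336396, minus strand: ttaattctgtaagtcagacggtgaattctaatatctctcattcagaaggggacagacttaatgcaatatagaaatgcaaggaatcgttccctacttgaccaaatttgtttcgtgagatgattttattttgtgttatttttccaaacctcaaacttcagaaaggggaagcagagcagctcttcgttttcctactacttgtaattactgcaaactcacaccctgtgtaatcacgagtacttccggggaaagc
Ms4a4b, chr19:11443308-11443557, plus strand: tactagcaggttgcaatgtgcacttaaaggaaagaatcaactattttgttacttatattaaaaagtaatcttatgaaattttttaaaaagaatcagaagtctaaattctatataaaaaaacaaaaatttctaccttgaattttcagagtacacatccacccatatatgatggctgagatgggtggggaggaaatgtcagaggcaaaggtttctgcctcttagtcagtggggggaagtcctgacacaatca
Ms4a4c, chr19:11407411-11407660, plus strand: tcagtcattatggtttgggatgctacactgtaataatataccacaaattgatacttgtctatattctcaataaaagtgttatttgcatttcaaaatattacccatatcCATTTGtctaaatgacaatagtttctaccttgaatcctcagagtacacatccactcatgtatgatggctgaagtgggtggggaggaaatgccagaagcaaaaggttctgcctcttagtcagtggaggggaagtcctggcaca
Ms4a6b, chr19:11518309-11518558, plus strand: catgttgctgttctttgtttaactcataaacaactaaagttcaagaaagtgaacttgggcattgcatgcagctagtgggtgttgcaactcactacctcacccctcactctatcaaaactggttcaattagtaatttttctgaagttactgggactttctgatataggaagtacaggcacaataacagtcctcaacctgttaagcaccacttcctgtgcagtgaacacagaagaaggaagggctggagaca
Ms4a6c, chr19:11469118-11469367, plus strand: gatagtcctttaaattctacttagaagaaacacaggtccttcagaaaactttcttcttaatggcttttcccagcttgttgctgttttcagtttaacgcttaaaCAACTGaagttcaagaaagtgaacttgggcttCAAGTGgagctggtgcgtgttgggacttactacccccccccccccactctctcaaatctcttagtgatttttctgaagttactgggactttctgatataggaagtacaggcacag
An E-box was present in 4 of the 8 windows of 300 bases (Ms4a3, Ms4a4a, Ms4a4c and Ms4a6c), against 72.3% of 32851 promoters of the same length. Ms4a3 held CAGATG at -105, Ms4a4c held CATTTG at -142, and Ms4a6c held CAACTG at -147 and CAAGTG at -115 relative to the start site. Searched on both strands, the C/EBP motif TTNNGCAA was in 1 of 8 windows (Ms4a3, as TTGCACAA at 42 bases after the start; 10.8% of all promoters). The PU.1 motif GAGGAAGT (3.2% of all promoters) and the interferon-stimulated response element (3.44%) were in 0 of 8. The windows of Ms4a6b and Ms4a6c were identical at 85.9% of 220 aligned bases, and those of Ms4a4b and Ms4a4c at 80.9% of 282. A match or its lack describes these letters only.

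The same pairs are close in their coding sequences, which bears on how well their reads can be separated. Ms4a4b and Ms4a4c were identical at 91.8% of 681 aligned coding bases, Ms4a6b and Ms4a6c at 85.3%, Ms4a6b and Ms4a6d at 81.3%, and Ms4a6c and Ms4a6d at 79.1%. The longest coding stretches shared without a mismatch are shown here, with positions counted from the first base of the coding sequence.
Ms4a4b and Ms4a4c, coding bases 321 to 447: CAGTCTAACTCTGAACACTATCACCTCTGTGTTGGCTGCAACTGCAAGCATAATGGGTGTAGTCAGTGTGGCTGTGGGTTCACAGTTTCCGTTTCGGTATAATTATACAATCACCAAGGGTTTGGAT
Ms4a6b and Ms4a6d, coding bases 100 to 180: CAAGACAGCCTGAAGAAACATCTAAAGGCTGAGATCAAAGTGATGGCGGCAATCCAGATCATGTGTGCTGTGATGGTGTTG
Over whole transcripts, 8.19% of the 50-base windows of Ms4a4c occurred in another annotated Ms4a gene, as did 5.85% of those of Ms4a6c, 3.44% of Ms4a6b, 2.31% of Ms4a6d, 2.24% of Ms4a4b and none of those of Ms4a3 or Ms4a7. The sources used here do not say how reads matching more than 1 gene were counted, so the split within the Ms4a4 and Ms4a6 pairs is uncertain to that extent.

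After doxycycline, Ms4a3 fell while Ms4a7, Ms4a6d, Ms4a4c, Ms4a6b and Ms4a6c rose. In limma's test with Benjamini-Hochberg adjustment over all 13406 genes, 5 of the 7 measured members were higher and 1 was lower at an adjusted p under 0.05, against 31.3% of all genes higher and 33.8% lower. With the pair label as a block, 6 were higher and 1 lower, against 33.6% and 36% of all genes. The groups' libraries did not overlap for 2 members that were higher and 1 that was lower, against 28.9% and 31.1% of all genes. The median change of the 7 was 1.02 on the log2 scale, against -0.03 for all genes, and 5 of the 7 changed at least 2-fold, against 15.7% of all genes. A call by itself was therefore common in this experiment, and the sizes below say more than the count. In these bulk libraries, fewer cells of a type and less RNA per cell cannot be told apart.

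Ms4a3, the progenitor member, was at 94.1, 76.9, 61.3 and 51.6 CPM in untreated pairs 1 to 4. With doxycycline it was at 19.3, 46.1, 24.5 and 12.7 CPM. All 4 treated libraries lay below all 4 untreated ones, and pair 2 kept the highest level after treatment. The mean went from 71.0 ± 18.6 CPM (SD, n = 4) to 25.6 ± 14.5 (SD, n = 4), a log2 change of -1.59 ± 0.35 (SE; adjusted p = 0.00285 by limma). Within pairs the difference ran from -2.29 in pair 1 to -0.74 in pair 2, so its size was uneven but its direction was shared.

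Ms4a7, a macrophage member, had the largest rise. It was at 2.15, 3.36, 2.44 and 4.91 CPM in untreated pairs 1 to 4 and at 31.8, 34.1, 26.1 and 42.1 CPM with doxycycline. No treated library came near an untreated one. The means were 3.21 ± 1.24 and 33.5 ± 6.65 CPM (SD, n = 4 each), and the log2 change was 3.44 ± 0.25 (SE; adjusted p = 2.7e-06 by limma). Only 0.85% of all genes changed by more in either direction.

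Ms4a6d, of the Ms4a6 group, was at 2.86, 4.18, 2.64 and 4.49 CPM untreated and at 20.1, 24.8, 19.5 and 36.3 CPM with doxycycline. The groups again stood well apart, and pair 4 was highest in both. The means were 3.54 ± 0.927 and 25.2 ± 7.77 CPM (SD, n = 4 each), with a log2 change of 2.82 ± 0.24 (SE; adjusted p = 6.0e-06 by limma). Its pairs differed by 2.57 to 3.01 on the log2 scale, a narrow range.

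The Ms4a4 members were low throughout. Ms4a4c was at 1.23, 4.53, 1.89 and 2.77 CPM in untreated pairs 1 to 4 and at 3.39, 10.7, 5.52 and 6.90 CPM with doxycycline. The groups overlapped because pair 2 was high in both, yet every pair rose by 1.24 to 1.55 on the log2 scale. The change was 1.39 ± 0.43 (SE; adjusted p = 0.0181 by limma), and with the pair as a block its SE was 0.12. Without both libraries of pair 3 or of pair 4 it missed the threshold (adjusted p = 0.0759 and 0.0549 by limma). Ms4a4b, the T cell member, was at 0.521, 2.01, 0.781 and 1.05 CPM untreated and at 1.51, 2.73, 1.40 and 2.49 CPM with doxycycline, on 12 to 57 reads per library. Its change of 1.02 ± 0.41 missed the threshold (adjusted p = 0.0533 by limma) and passed it with the pair as a block (adjusted p = 0.0037). It was also called without untreated pair 2 (0.00777), without doxycycline pair 3 (0.0490) and without both libraries of pair 2 (0.02). All 4 pairs were higher, by 0.44 to 1.53.

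The Ms4a6b and Ms4a6c pair moved by less. Ms4a6b was at 5.65, 12.2, 6.72 and 7.37 CPM in untreated pairs 1 to 4 and at 8.49, 23.7, 11.8 and 22.4 CPM with doxycycline, so the groups overlapped. Its change was 0.99 ± 0.35 (SE; adjusted p = 0.0315 by limma; 4.8e-04 with the block). Ms4a6c, the member with most reads after Ms4a3 in untreated cells, was at 46.3, 73.7, 43.4 and 53.9 CPM untreated and at 69.8, 119.8, 65.6 and 111.8 CPM with doxycycline. Here too the groups overlapped, and all 4 pairs were higher, by 0.59 to 1.05. The change was 0.74 ± 0.23 (SE; adjusted p = 0.0180 by limma; 5.8e-05 with the block). Both lost their call with library totals as the scaling (adjusted p = 0.0822 for Ms4a6b and 0.0796 for Ms4a6c), where their changes relative to the median of all genes were 1.02 and 0.76. Ms4a6b also lost it without untreated pair 1, 3 or 4 or doxycycline pair 2 or 4, with adjusted p between 0.0599 and 0.0829 by limma, and without both libraries of pair 3 (0.0766) or of pair 4 (0.130). Without the variance trend its adjusted p was 0.0503 by limma. Ms4a6c lost it without untreated pair 3 (adjusted p = 0.0522) and without both libraries of pair 4 (0.0771).

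**Figure D1:**
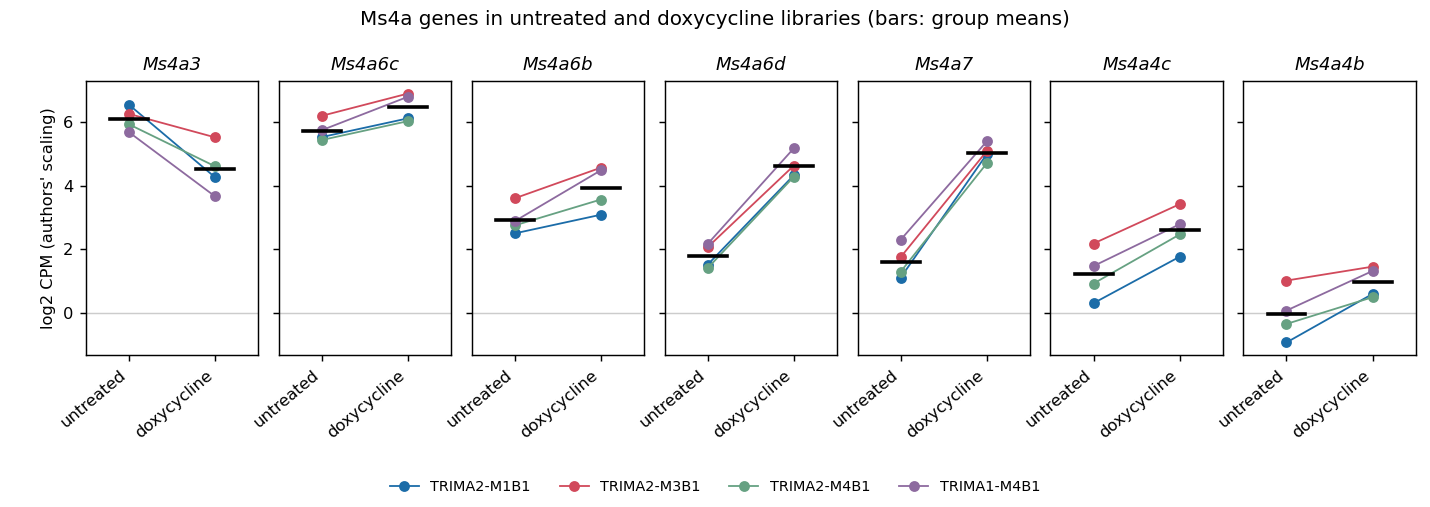
Each panel plots the log2 CPM of a measured Ms4a gene in untreated and doxycycline libraries (4 each), with a line joining each pair and a black bar at each group mean. Every doxycycline point lies below its untreated partner for Ms4a3 and above it for the other 6 genes, by most for Ms4a7 and Ms4a6d.

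Genes whose products work with Ms4a proteins were read from the same fit, and 6 of the 9 measured were higher and 2 lower, against 31.3% and 33.8% of all genes. Trem2, the lipid-sensing receptor, rose from 51.6 ± 11.4 to 433.6 ± 38.5 CPM (SD, n = 4 each), a log2 change of 3.09. Tyrobp, its signalling adaptor, rose by 1.26, and Clec7a, the beta-glucan receptor dectin-1, by 2.09. Fcer1g, the signalling chain shared by Fc receptors, rose by 1.01, and the kinases Lyn and Syk by 0.88 and 0.68. Of the genes tied to the progenitor member, Cdk2 was lower with a change of -0.32, while Cdkn3 was at 19.8 ± 2.22 CPM untreated and 17.7 ± 1.89 with doxycycline and was not called (adjusted p = 0.187 by limma). Tnfrsf18, the partner of Ms4a4b, was lower with a change of -0.72 at 1 to 3 CPM. Fcer1a, the chain that pairs with Ms4a2, was not in the table. Of the related membrane genes Tmem176a and Tmem176b, Tmem176b rose by 1.66 (adjusted p = 0.0180 by limma). Tmem176a had a change of 1.40 from 0.479 to 2.79 CPM untreated, and was not called without the block. It passed the authors' level minimum only through the doxycycline libraries and had to be higher there, so its change is no evidence of a rise.

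Markers of mature myeloid cells moved with these members. Of 11 monocyte and macrophage markers, 10 were higher (31.3% of all genes were), and their summed level went from 889 to 1168 CPM untreated to 3015 to 3445 CPM with doxycycline. All 9 late neutrophil markers were higher, against the same share of all genes, with sums of 542 to 1990 and 4414 to 9933 CPM. Among them, Ly6g (0.146 to 0.767 CPM untreated) passed the authors' level minimum only through the doxycycline libraries and had to be higher there. Of 7 progenitor markers, Elane, Gfi1, Ctsg and Prtn3 were lower, as Ms4a3 was, against 33.8% of all genes. Irf8 was higher, and Mpo and Cebpe were not called. With the pair as a block, 5 were lower, Mpo among them, against 36% of all genes. Irf8 and Cebpe were then higher, against 33.6% of all genes. The sums of the 7 went from 2007 to 2625 CPM untreated to between 736 and 1223 CPM with doxycycline. The part of these shifts in the Ms4a values was not tested. Of the T cell markers, Cd3e, Cd3d, Cd3g, Cd2, Trac, Cd8a and Cd4 were not in the table. Lat, an adaptor of T cell receptor signalling, rose from 3.39 ± 0.618 to 7.29 ± 2.85 CPM (SD, n = 4 each; log2 change 1.05). The kinase Lck was at 0.790 ± 0.276 CPM untreated and 0.197 ± 0.131 CPM with doxycycline (log2 change -2.48). Lck passed the authors' level minimum only through the untreated libraries and had to be lower with doxycycline, so its change is no evidence of a fall. Together Lat and Lck summed to 3.86 to 4.79 CPM untreated and 5.41 to 11.6 CPM with doxycycline. For B cells, whose member Ms4a1 was not listed, Cd79a and Pax5 were not listed either. Blnk rose by 1.60. Cd22 had a change of 2.53, but at 0.604 to 1.49 CPM untreated it passed the authors' level minimum only through the doxycycline libraries. Cd22 had to be higher there, so its change is no evidence of a rise. Cd79b was at 18.4 ± 6.16 and 14.8 ± 6.05 CPM (SD, n = 4 each) and was not called (adjusted p = 0.421 by limma). With the pair as a block, Cd79b was called lower (change -0.35; adjusted p = 0.00529 by limma). For mast cells and basophils, whose member Ms4a2 was not listed, 5 of 10 markers were measured. Kit, Mcpt8, Gata2 and Cpa3 were lower, with changes of -3.72, -1.64, -0.89 and -0.76, Hdc was not called, and Fcer1a and Mcpt4 were among those not listed.

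Neighbours in the block differed in direction. Ms4a3 and Ms4a6d, whose start sites are 36.0 kb apart, moved in opposite directions, and Ms4a7, 304.7 kb from Ms4a3, had the largest rise. No other protein-coding gene of either table lay inside the block. Within 500 kb of it, 18 of 42 annotated protein-coding genes were in the doxycycline table, with 7 higher, 7 lower and a median change of -0.16. These counts are near the shares of all genes that were higher (31.3%) and lower (33.8%). The nearest on the Ms4a10 side were Ccdc86 (change of -0.21, 13 kb away) and Prpf19 (-0.57, 52.7 kb), both lower. On the Ms4a3 side they were Mrpl16 (-0.23, 129.5 kb), which was lower, and Stx3 (1.1, 134.3 kb), a membrane fusion protein, which was higher.

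**Figure D2:**
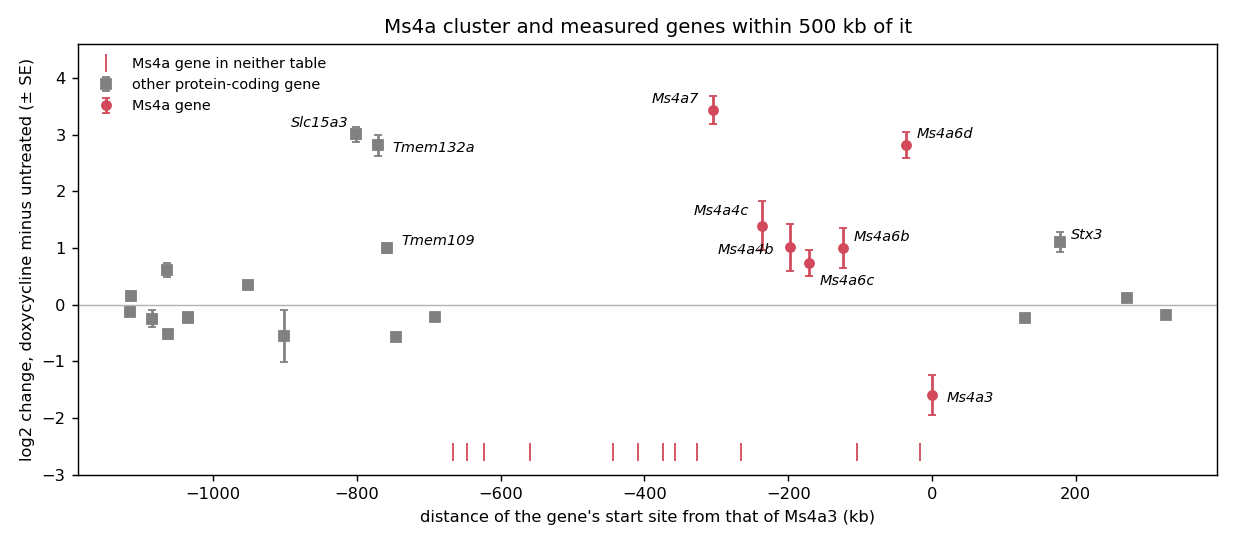
The log2 change after doxycycline (± SE) is plotted against the distance of each gene's start site from that of Ms4a3 in kb, with Ms4a genes as circles, other measured genes within 500 kb as squares and Ms4a genes in neither table as ticks. Ms4a3 lies at -1.59 beside Ms4a6d at 2.82, and Ms4a7 is at 3.44.

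Per kb of exon, the order of the members changed with doxycycline. In untreated cells Ms4a3 (37.7 ± 9.87 CPM per kb, SD, n = 4) and Ms4a6c (26.5 ± 6.65) were the most abundant, and their libraries overlapped. Ms4a6d (2.03), Ms4a6b (1.77), Ms4a4c (1.47) and Ms4a7 (0.716) followed, each overlapping the next. Ms4a4b (0.122) lay below them all. With doxycycline Ms4a6c led (44.8 ± 13.7 CPM per kb) without overlap with Ms4a6d (14.5 ± 4.48), which overlapped Ms4a3 (13.6 ± 7.67). Ms4a7 (7.52), Ms4a4c (3.77) and Ms4a6b (3.70) followed with overlapping neighbours, and Ms4a4b (0.228) was again last. With the length of the longest transcript in place of all exons, only Ms4a4c and Ms4a6b, which overlap, swapped places in these groups. In the control-GFP libraries Ms4a3 (25.8 ± 18.7 CPM per kb, SD, n = 3) and Ms4a6c (22.5 ± 5.77) again led with overlap. In the Id2-GFP libraries Ms4a6c (55.4 ± 7.03) stood above Ms4a3 (23.9 ± 16.97) without overlap, and Ms4a7 (0.369) was last, overlapping Ms4a4b (0.652).

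Over the 8 libraries of this experiment, the profiles closest to Ms4a3 (root mean square distance of log2 values centred on their mean) were those of Slc7a4 (0.226), Dlg3 (0.338), Vangl2 (0.34) and Mir425 (0.346). The closest to Ms4a6d were Psap (0.151), Adap2 (0.155), Nrp1 (0.184) and Ctss (0.187), of which Psap and Ctss encode lysosomal proteins. These genes were ranked on the group difference itself, and correlation of the deviations from the group means gave 4 other genes for each, so the lists are descriptions of this contrast only.

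With Id2, 6 of the 7 measured members had a higher mean CPM than with the control vector, and none passed limma's test without the replicate number as a block. The mean CPM of Ms4a3 was lower (48.55 with the control vector and 45.1 with Id2), although its log2 change was 0.08. Without the block, 0 of 7 members were called in either direction, and over all 14563 genes 0.0137% were higher (2 genes) and 0% lower, with 357 genes at an unadjusted p under 0.05. With the replicate number as a block, Ms4a6c was higher and no member lower, against 0.11% of all genes higher and 0.13% lower. The libraries of the groups did not overlap for 4 members, all higher, against 3.18% of all genes higher and 3.77% lower. Ms4a4b and Ms4a7, which are 2 of these 4, passed the authors' level minimum only through the Id2-GFP libraries and had to be higher there. Their values are therefore given without a p, and neither is counted as a call with the block. The median change of the 7 was 1.07 on the log2 scale, against -0.03 for all genes, under the same reservation.

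Ms4a6c was the most abundant member with Id2. It was at 49.9, 55.8 and 33.0 CPM in control-GFP replicates 1 to 3 and at 100.3, 128.9 and 111.8 CPM in Id2-GFP replicates 1 to 3. All 3 Id2-GFP libraries lay above all 3 controls, by a difference of 1.01 to 1.76 on the log2 scale within numbers. The means were 46.2 ± 11.8 and 113.7 ± 14.4 CPM (SD, n = 3 each), and the log2 change was 1.33 ± 0.23 (SE). It ranked 10 among all genes by p (adjusted p = 0.763 by limma), and it passed with the replicate block (adjusted p = 0.0407).

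Ms4a4b, which passed the level minimum only through the Id2-GFP libraries, had the largest difference of the family. It was at 0.427, 1.42 and 0.856 CPM in the controls, on 6, 20 and 11 reads, and at 4.34, 6.24 and 6.69 CPM with Id2, on 66, 89 and 96 reads. The groups stood apart, with a log2 change of 2.82 ± 0.49 (SE) and differences of 3.34, 2.14 and 2.97 in numbers 1 to 3. Its close copy Ms4a4c was at 0.888, 1.69 and 4.73 CPM in the controls and at 2.71, 7.07 and 10.02 CPM with Id2. Ms4a4c overlapped between groups, was higher in 3 of 3 numbers, and missed the threshold with the block too (change 1.59 ± 0.70, SE; adjusted p = 0.998 by limma and 0.0916 with the block). The T cell markers Lat and Lck summed to 2.77 to 5.73 CPM in the controls and 2.01 to 5.02 CPM with Id2, and Cd3e, Cd3d and Cd3g were not listed. Nkg7, the only listed NK cell marker in the table, was at 1.00 to 1.35 and 1.77 to 2.06 CPM.

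The other members differed by less. Ms4a6b was at 10.6, 11.2 and 11.6 CPM in the controls and at 13.02, 17.7 and 16.8 CPM with Id2, without overlap (change 0.50 ± 0.21, SE; adjusted p = 0.998 by limma). Ms4a6d was at 4.44, 4.25 and 1.75 CPM in the controls and at 5.45, 10.8 and 3.57 CPM with Id2, with overlap (0.89 ± 0.52; adjusted p = 0.998 by limma). Both were higher in 3 of 3 numbers. Ms4a7 was near the level minimum, at 0.690, 1.00 and 0.633 CPM in the controls and 1.14, 2.47 and 1.42 CPM with Id2, on 8 to 35 reads. The monocyte and macrophage markers, of which 8 of 11 were measured and 0 called (limma, 357 genes of the table at an unadjusted p under 0.05), summed to 796 to 1002 CPM in the controls and 811 to 1057 CPM with Id2. Of the 9 measured partner genes 0 were called by the same test, and Trem2 was at 30.1 ± 4.42 and 52.9 ± 35.6 CPM (SD, n = 3 each).

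**Figure D3:**
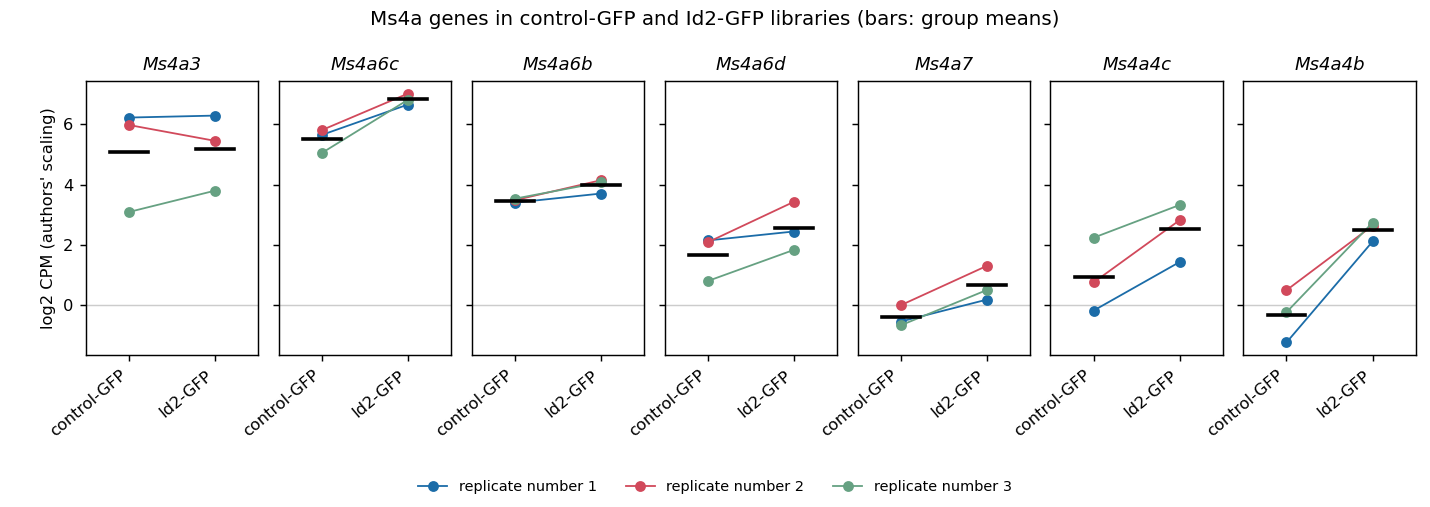
Each panel plots the log2 CPM of a measured Ms4a gene in control-GFP and Id2-GFP libraries (3 each), with a line joining each replicate number and a black bar at each group mean. The Id2-GFP points of Ms4a6c and Ms4a4b lie above all control points, and the line of replicate number 3 runs far below the others for Ms4a3.

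Ms4a3 varied more between replicate numbers than between vectors. It was at 74.4, 62.7 and 8.52 CPM in control-GFP replicates 1 to 3 and at 77.8, 43.6 and 13.9 CPM in Id2-GFP replicates 1 to 3. Replicate number 3 was low in both groups. The change was 0.08, with a 95% confidence interval from -2.05 to 2.22 without the block and from -0.46 to 0.62 with it, and without the libraries of number 3 it was -0.23. Of the 7 progenitor markers, the transcription factors Gfi1 and Cebpe and the granule enzymes Elane and Ctsg were lowest in number 3 in both groups as well. The granule enzyme Mpo was highest there in both groups. Between vectors, Mpo went from 131.7 ± 62.1 CPM in the controls to 47.05 ± 31.7 with Id2 (SD, n = 3 each), with overlap. Its log2 change of -1.74 was called only with the replicate number as a block (adjusted p = 0.0359 by limma), where 0.13% of all genes were lower. No other of the 7 markers was called in either fit. Irf8 was highest in number 3 of the controls (256.9 CPM) and between the other numbers with Id2 (203.4 CPM). Prtn3 was between the other numbers in number 3 of the controls (236.6 CPM) and lowest there with Id2 (192.8 CPM). The part of this in the value of Ms4a3 was not tested.

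**Figure D4:**
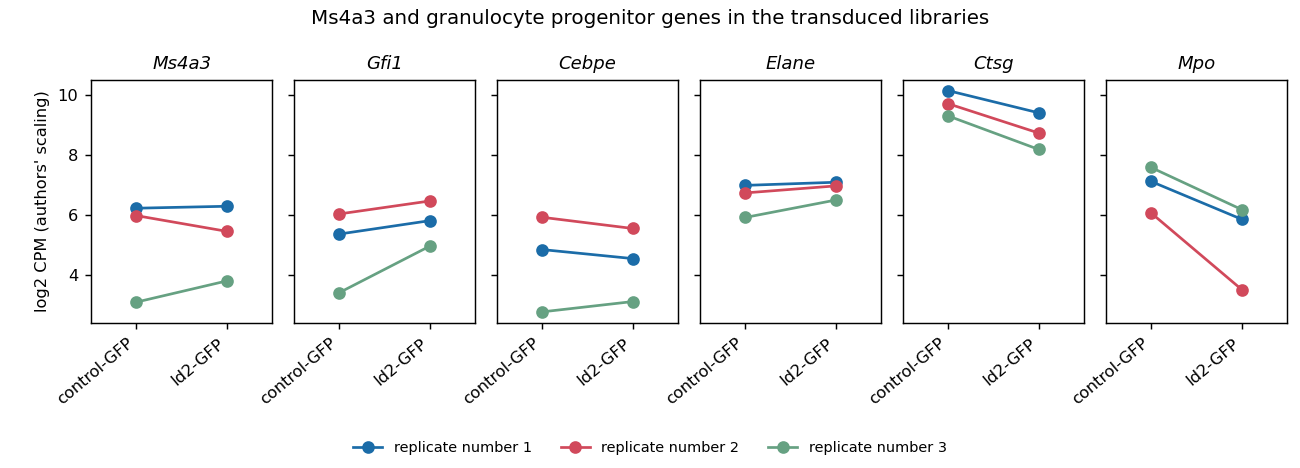
The log2 CPM of Ms4a3 and 5 genes of granulocyte progenitors is plotted for control-GFP and Id2-GFP libraries, with a line for each replicate number. Number 3 is lowest for Ms4a3, Gfi1, Cebpe, Elane and Ctsg and highest for Mpo.

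The changes of the members in both experiments are set side by side here. Ms4a7 and Ms4a6d had the largest changes after doxycycline (3.44 and 2.82) and changes of 1.07 and 0.89 with Id2. Ms4a4b and Ms4a6c had changes of 1.02 and 0.74 after doxycycline and of 2.82 and 1.33 with Id2. Ms4a4b and Ms4a7 passed the authors' level minimum in the Id2 experiment only through the Id2-GFP libraries and had to be higher there. Their Id2 changes therefore cannot show that the order of the members differed between the experiments. Ms4a3 fell by 1.59 after doxycycline and had a change of 0.08 with Id2. Id2 itself rose by 1.66 after doxycycline, to between 80.4 and 92.6 CPM, and was at 952 CPM or more in the Id2-GFP libraries. The tables were normalized separately and share no library, and the difference between the experiments was not tested.

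**Figure D5:**
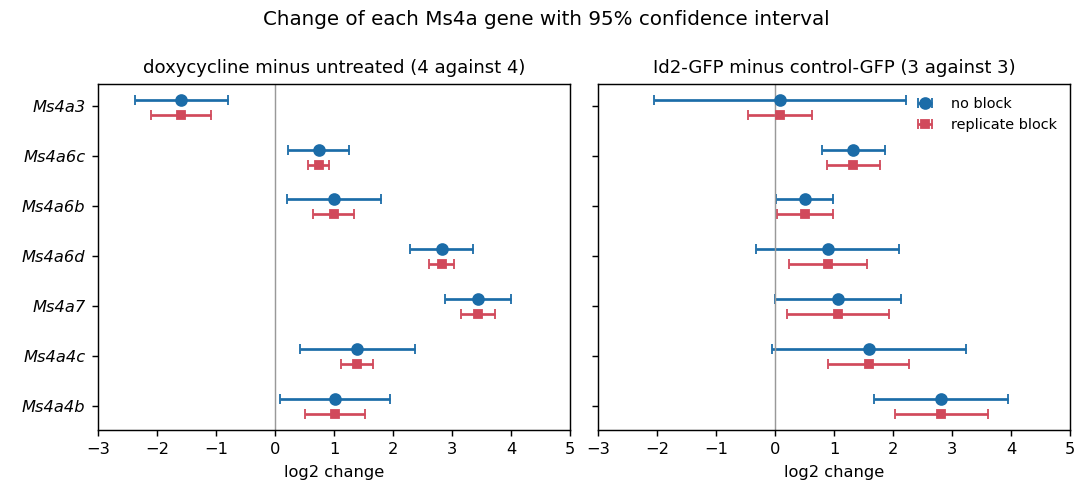
The log2 change of each Ms4a gene is plotted with its 95% confidence interval, without (circles) and with (squares) the replicate number or pair label as a block, for doxycycline minus untreated on the left and Id2-GFP minus control-GFP on the right. The block narrows every interval plotted, that of Ms4a6b with Id2 only slightly, and the interval of Ms4a3 with Id2 spans 0 in both fits.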

How the data were processed

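The deposited tables hold log2 values, which the authors made per library from reads per gene, an offset of 0.5 reads and a scaled library size, in CPM; this form was recovered from the values, where 100% gave whole reads within 0.01 read. CASAVA 1.8.2, TopHat2, HTSeq, limma and mm10 are named, per the submitters' processing notes, without roles. Both tables keep genes over 1 CPM in at least 2 libraries. The doxycycline table had 13 repeated rows, which were dropped. CPM given here is 2 to the power of the deposited value. Groups were compared with limma 3.58.1 (R 4.3.3; eBayes with trend, two-sided, Benjamini-Hochberg over the whole table, threshold 0.05) within each table; the script was tested on simulated data. The members and gene lists were chosen with earlier results of these data known. Named are the members, fixed partner and marker lists, the nearest 2 neighbours on each side and the 4 genes of most like profile for Ms4a3 and Ms4a6d; Slc15a3, Tmem132a and Tmem109 in the plot along the chromosome were labelled after their values were seen. Listed genes not found by symbol were sought under older RefSeq symbols, which gave Adgre1 (as Emr1) and Siglecf (as Siglec5). Pairing comes from the labels' pair names and replicate numbers. Deviations from group means correlated between same-numbered libraries at 0.454 to 0.552 (doxycycline) and 0.472 to 0.581 (Id2), and at -0.013 or below between others, so the numbers were taken to pair the libraries. Alternatives were the block, other scalings, offset, filter, variance model, weights and left-out libraries. No protein sequence was used here. Counts of 3 reads correspond to 0.125 to 0.223 CPM, and intervals cover the spread between these libraries only.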

Additional observations from a re-analysis of the deposited data

How the results depend on the processing

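All direction calls of the doxycycline experiment kept their sign in every alternative run. Ms4a3, Ms4a6d and Ms4a7 stayed past the threshold in all 20, Ms4a4c and Ms4a6c in 17 (of 19 and 20) and Ms4a6b in 11 of 20, with adjusted p by limma up to 0.130 for Ms4a6b. Members passing numbered 6, between 4 and 7 without any 1 library, and 3 without both libraries of replicate 4 (pair 4), the cause of which was not tested. With library totals 4 passed, and without a variance trend 5. Ms4a4b, not called, passed in 5 of 19 alternatives. The replicate block gave 9326 calls over all genes, against 8733. For Id2 it gave 35 calls over all genes, against 2, and 2 members (Ms4a6c and Ms4a4b), against 0, of which Ms4a4b was in the table only through the Id2-GFP libraries and is no evidence of a difference; the filter at a mean log2 value over 2 left 1 call. Leaving out 1 library left 0 to 3 calls over all genes and 0 members by limma; it left 0 over all genes without Id2-GFP replicate 1 and 1 without Id2-GFP replicate 3. Leaving out both libraries of number 1, or of number 2, left 0 calls. Without any 1 library, Ms4a3 with Id2 ran from -0.92 to 0.77. It turned to -0.55 with array weights, -0.92 without control-GFP replicate 3, -0.47 without Id2-GFP replicate 1, -0.05 without Id2-GFP replicate 2 and -0.23 without both libraries of number 3, and was called in none. Depth limits Ms4a7 (8 to 35 reads per library) and, in the controls, Ms4a4b (6 to 20 reads) in the Id2 experiment. Beside Ms4a4b in both experiments and Ms4a6c with Id2, the block changed no member's call.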
